A study of Drosophila melanogaster with 72 samples.

Results

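The RNA of Drosophila melanogaster embryos labelled as mutant with mislocalized IntS9 was followed from the window of 1 to 1.5 h to the window of 2.5 to 3 h. The comparison used 4 of the 72 libraries of the series, 2 collected at 2.5 to 3 h and 2 at 1 to 1.5 h, chosen by their titles, and it covered every gene with enough counts to be fitted. Wild type embryos of the same experiment, with 2 libraries in each window, gave the normal course of these hours. Both arms also had 2 libraries at 0 to 0.5 h. Embryos with mislocalized IntS11 and embryos given alpha-amanitin, a toxin that blocks RNA polymerase II, came from other experiments and had 2 libraries in each of the 2 later windows. The labels give no strain, allele, driver or means of mislocalization for any group. They do not say whether replicate libraries came from separate collections, so the p-values measure only the spread between these samples, which may be technical. The question was what still changes with age when IntS9 is mislocalized.

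IntS9 belongs to Integrator, a large complex that binds RNA polymerase II. With IntS11, an endonuclease, and IntS4 it forms the module that cleaves nascent transcripts, which makes the ends of small nuclear RNAs and stops polymerases paused near promoters. A fly embryo begins life on RNA loaded by the mother. That RNA is cleared in waves, one set off by egg activation and others that need transcription by the embryo, while the embryo's own genome is switched on first at a few genes and then broadly.

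The 4 libraries held 13885877 and 15792290 expected counts at 2.5 to 3 h, against 16546476 and 21331201 at 1 to 1.5 h. In them 10003 and 10056 genes had a count at 2.5 to 3 h, against 10859 and 11103 at 1 to 1.5 h. Levels are CPM, counts scaled to a common library size with TMM factors, and each pair of values gives the 2 libraries of a group in replicate order. Age changes are log2 differences of 2.5 to 3 h over 1 to 1.5 h from edgeR's quasi-likelihood test, with the SE after ±, n = 2 libraries per group. A gene was called at an adjusted p (Benjamini-Hochberg) under 0.05, and "rose" and "fell" are used of called genes only. All levels are relative to the other RNA in the library, and in such bulk samples fewer cells of a type and less RNA per cell cannot be told apart. The scale matters for small rises. In the deposited TPM, the same age changes were lower by a median of 0.39 on the log2 scale over 6369 genes. In that unit both 7SL genes, copies of the signal recognition particle RNA, together held 47.8% and 42.4% of the total at 2.5 to 3 h, against 38.8% and 38.5% at 1 to 1.5 h.

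Between the windows, 6535 of 9217 genes were called in the IntS9 mislocalized embryos (70.9%), 3219 higher (34.9%) and 3316 lower (36%). The directions were unequal in size. At least 2-fold falls numbered 2295 (24.9%), with a median log2 change of -2.46, and 857 of them exceeded 8-fold. At least 2-fold rises numbered 66 (0.716%), and the first and the third quartiles of the 3219 higher genes were 0.32 and 0.56 on the log2 scale. On the TPM scale the called genes numbered 4282, with 257 higher and 4025 lower, and those past 2-fold numbered 2 higher and 2338 lower. Deep falls were frequent on both scales, and most of the calls of higher genes were made on the CPM scale only.

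Wild type embryos changed in both directions over the same hours, with 7504 genes called (81.4%), 41.7% higher and 39.8% lower. Of these, 1809 were at least 2-fold higher (19.6%) and 2107 at least 2-fold lower (22.9%). On the TPM scale the wild type rises past 2-fold numbered 815. The test of the difference between the arms called 6101 genes (66.2%), with 2783 changing more positively in mutant than in wild type embryos (30.2%) and 3318 more negatively (36%). Of the 1809 genes that rose at least 2-fold in wild type, 298 were higher with age in mutant embryos, 27 of them at least 2-fold, and 343 were lower. Summed over these 1809 genes, the level was 37567 and 40878 CPM in mutant embryos at 2.5 to 3 h and 32655 and 33323 CPM at 1 to 1.5 h, against 176624 and 176522 CPM in wild type at 2.5 to 3 h and 45832 and 46112 CPM at 1 to 1.5 h. These genes were chosen by their rise in the same wild type libraries, so the wild type rise and part of the contrast follow from the choice, and the values are a description.

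The falls of mutant embryos overlapped those of wild type in part. Of the 2295 genes, 1073 also fell at least 2-fold in wild type, which is 46.8% of the mutant list and 50.9% of the wild type list. Of the 2295, 1504 were lower in wild type by any called amount, 415 were higher and 376 were not called. The difference was called for 1437 genes that fell more in mutant embryos and 451 that fell less. An excess in this direction follows from choosing genes by their fall in mutant embryos. Among the 2107 genes chosen by a fall of at least 2-fold in wild type, 1429 changed more positively in mutant embryos and 396 more negatively. Together the 2295 genes held 50716 and 49921 CPM in mutant embryos at 2.5 to 3 h and 199590 and 204176 CPM at 1 to 1.5 h, against 91297 and 91114 CPM in wild type at 2.5 to 3 h and 201427 and 198410 CPM at 1 to 1.5 h. The 2107 genes chosen by wild type held 163881 and 169791 CPM in mutant embryos at 2.5 to 3 h and 282160 and 289887 CPM at 1 to 1.5 h, against 68485 and 68591 CPM in wild type at 2.5 to 3 h and 272931 and 271534 CPM at 1 to 1.5 h. At 2.5 to 3 h each sum was lower in the arm that chose its genes, so neither order is a result about the arms. Some genes that marked the youngest wild type libraries were among the falls: 221 genes stood at least 4-fold higher in wild type at 0 to 0.5 h than at 1 to 1.5 h, and 164 of them (74.2%) fell at least 2-fold in mutant embryos. Without these 221, falls of at least 2-fold numbered 2131, rises 66 and called genes 6365.

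**Figure D1:**
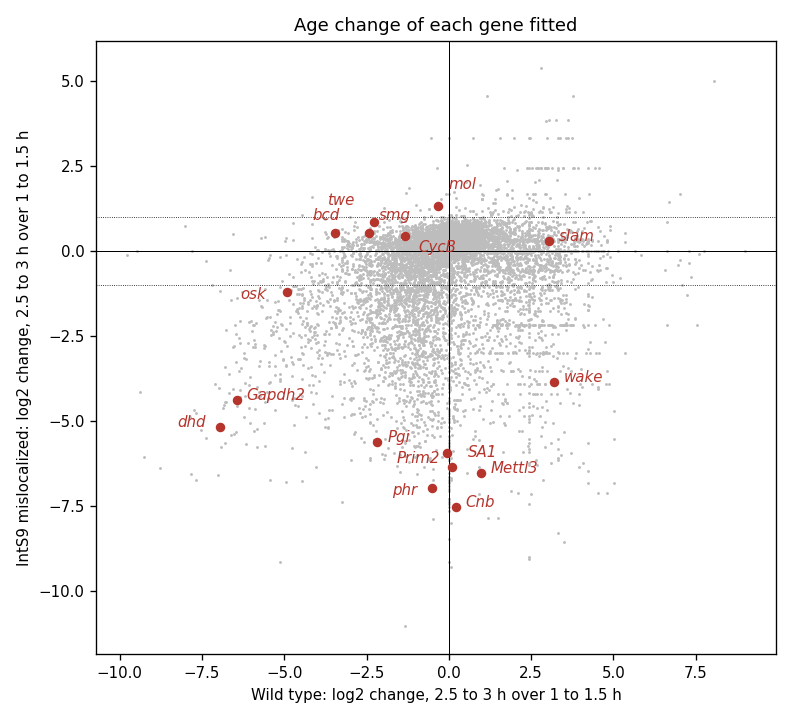
Each point is 1 of the 9217 genes fitted, placed by its log2 age change (2.5 to 3 h over 1 to 1.5 h) in wild type on the horizontal axis and in IntS9 mislocalized embryos on the vertical axis, with dotted lines at 2-fold and genes of the text in red. The cloud spreads to both sides of 0 in wild type but mainly below 0 in mutant embryos, and horizontal rows of points are genes with 0 to a few counts in the mutant libraries. The small rises of bcd, smg and CycB were not called on the TPM scale, and that of slam was reversed there.

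Zygotic genes of normal development stayed low in mutant embryos. A list of 29 early zygotic genes, those switched on in the minor wave, summed to 571 and 648 CPM in mutant embryos at 2.5 to 3 h and 473 and 469 CPM at 1 to 1.5 h. Most of these mutant sums came from slam and Nin, whose levels are given below, so they are not a level of the list as a whole. In wild type the sums were 16097 and 16084 CPM at 2.5 to 3 h and 1675 and 1644 CPM at 1 to 1.5 h. In the mutant arm 3 of the 29 were higher with age (10.3%) and 8 lower (27.6%), beside 34.9% and 36% of all genes. Their median log2 change was 0.00, against 26 higher and 2 lower and a median of 3.47 in wild type. Members with few counts in mutant embryos passed the filter through the wild type libraries, and for them a call was hard to reach. In mutant embryos 15 had 3 or fewer counts over both libraries at 2.5 to 3 h, 7 of them 0, and 10 had 3 or fewer at 1 to 1.5 h, 8 of them 0.

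Individual patterning and cellularization genes showed the same split. The pair-rule gene ftz, the mesoderm gene twi and the early gene term had 0 counts in both mutant windows, so their levels were under 0.2117 CPM in the shallowest library, the value of 3 counts there. The wild type held 259 and 257 CPM of ftz at 2.5 to 3 h and 9.95 and 9.96 CPM at 1 to 1.5 h. The gap gene Kr had 2.05 and 2.4 CPM in mutant embryos at 2.5 to 3 h and 1.9 and 2.29 CPM at 1 to 1.5 h, a change that was not called (edgeR, adjusted p = 0.794). In wild type Kr stood at 288 and 288 CPM at 2.5 to 3 h, against 35.5 and 37.0 CPM at 1 to 1.5 h. The low mutant levels of other patterning genes moved down. The pair-rule repressor gene hry had 1.34 and 2.09 CPM in mutant embryos at 2.5 to 3 h, against 5.65 and 4.67 CPM at 1 to 1.5 h, and changed by -1.55 ± 0.20, beside 4.11 in wild type. The gap gene gt had 0.988 and 0.923 CPM at 2.5 to 3 h, against 2.48 and 2.57 CPM, with a log2 change of -1.40. The dorsal factor ush, a partner of GATA proteins, had 2.89 and 3.57 CPM at 2.5 to 3 h, against 16.6 and 18.6 CPM, with a log2 change of -2.44 in mutant embryos and 1.84 in wild type.

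Across the patterning lists edgeR called 0 genes higher with age in mutant embryos, with 0 at an unadjusted p under 0.05 and 0 by DESeq2. Of 19 gap and pair-rule genes 8 were lower, against 17 higher and 1 lower in wild type. Of 20 dorsoventral genes 9 were lower, and of 14 segment polarity and Hox genes 2 were lower. Over all genes fitted 34.9% were higher and 36% lower. Members of these lists with few counts in mutant embryos also passed the filter through wild type, and 12 of the 19 gap and pair-rule genes had 3 or fewer counts in mutant embryos at 2.5 to 3 h. Early zygotic genes with more RNA in mutant embryos moved little. slam, needed for membrane growth at cellularization, had 314 and 348 CPM at 2.5 to 3 h and 268 and 264 CPM at 1 to 1.5 h, a log2 change of 0.31 ± 0.06 that turned to -0.086 on the TPM scale. In wild type slam reached 3786 and 3831 CPM, against 484 and 451 CPM. Nin, a centrosome protein gene, had 228 and 272 CPM at 2.5 to 3 h and 169 and 168 CPM at 1 to 1.5 h in mutant embryos, a log2 change of 0.57 ± 0.06 that was 0.15 and not called on the TPM scale.

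Most transcripts of egg activation and meiosis fell in both arms. Of 16 such genes fitted, 12 fell (75%) and 4 were higher (25%), beside 36% and 34.9% of all genes. The median log2 change was -2.15, against 16 falls and a median of -3.71 in wild type. The difference between the arms was called for 15 of the 16, with 13 changing more positively in mutant embryos (81.2%) and 2 more negatively (12.5%). Over all genes fitted it was called for 66.2%, with 30.2% more positive and 36% more negative. The thioredoxin gene dhd (chromosome X, 5312171 to 5313125) had 27.4 and 19.1 CPM in mutant embryos at 2.5 to 3 h, against 782 and 890.3 CPM at 1 to 1.5 h, a change of -5.18 ± 0.12. Its wild type levels were 9.03 and 8.7 CPM at 2.5 to 3 h and 1125 and 1069 CPM at 1 to 1.5 h. The ages did not overlap in either arm.

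The kinase complex that drives egg activation consists of png, gnu and plu. png had 13.1 and 13.2 CPM at 2.5 to 3 h, against 91.2 and 89.2 CPM at 1 to 1.5 h, and changed by -2.78 ± 0.07. gnu had 71.6 and 55.4 CPM, against 261 and 272 CPM, and changed by -2.08 ± 0.09, while wild type changed by -5.30. plu behaved otherwise, with 54.6 and 48.8 CPM at 2.5 to 3 h and 39.7 and 37.1 CPM at 1 to 1.5 h, a log2 change of 0.43 that was 0.019 and not called on the TPM scale. cort, an activator of the anaphase-promoting complex in meiosis, was one of the 2 that fell more in mutant embryos: 1.69 and 1.85 CPM at 2.5 to 3 h, against 64.4 and 63.7 CPM at 1 to 1.5 h, a change of -5.17 ± 0.12, beside -3.67 ± 0.10 in wild type (difference -1.49, edgeR, adjusted p = 1.59e-06). mtrm, which encodes an inhibitor of Polo kinase, changed by -2.37 in mutant embryos and -5.36 in wild type. Mos, a meiotic kinase, changed by -4.15 in mutant embryos and -5.75 in wild type, and fs(1)Ya, a nuclear lamina protein of the early embryo, by -3.44 and -6.31.

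smg, the RNA-binding repressor Smaug that directs an early wave of clearance, kept its RNA. It had 2423 and 2882 CPM in mutant embryos at 2.5 to 3 h and 1822 and 1876 CPM at 1 to 1.5 h, against 349 and 348 CPM and 1802 and 1938 CPM in wild type. The mutant change was 0.52 ± 0.07, which was 0.13 and not called on the TPM scale, and the wild type change was -2.42 ± 0.07. The difference of 2.94 was called (edgeR, adjusted p = 4.73e-16). wisp, the poly(A) polymerase that activates maternal messages, had 589 and 718 CPM at 2.5 to 3 h and 488 and 509 CPM at 1 to 1.5 h, a log2 change of 0.39 that was -0.0065 on the TPM scale, against -1.27 in wild type.

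Maternal axis determinants divided into those that fell in both arms and those that persisted in mutant embryos. Of 20 genes, 14 fell (70%) and 4 were higher with age (20%), beside 36% and 34.9% of all genes. The median log2 change was -0.83, against 16 lower, 1 higher and a median of -3.03 in wild type. The difference was called for 14 genes changing more positively in mutant embryos (70%) and 1 more negatively (5%), beside 30.2% and 36% of all genes. bcd, the anterior determinant (chromosome 3R, 6755842 to 6759466), had 319.7 and 352 CPM in mutant embryos at 2.5 to 3 h, against 228 and 235 CPM at 1 to 1.5 h. Wild type had 19.0 and 18.3 CPM at 2.5 to 3 h and 193 and 215 CPM at 1 to 1.5 h. The mutant change of 0.54 ± 0.06 was 0.16 and not called on the TPM scale, where the values were 81.1 and 108 TPM at 2.5 to 3 h and 84.4 and 83.7 TPM at 1 to 1.5 h. On neither scale did bcd show the fall of wild type, which was -3.45 ± 0.08, and the difference was 3.99 ± 0.10 (edgeR, adjusted p = 4.69e-18).

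osk, the organizer of germ plasm, fell part of the way. It had 607 and 653 CPM in mutant embryos at 2.5 to 3 h, against 1394 and 1512 CPM at 1 to 1.5 h, and 38.3 and 40.6 CPM in wild type at 2.5 to 3 h, against 1171 and 1214 CPM. The changes were -1.20 ± 0.06 in mutant embryos and -4.92 ± 0.07 in wild type. An antisense RNA and a noncoding osk transcript overlap its exons, and the sources used here do not say whether counting used the strand. Of 116 genes examined by name, 36 share exon bases with a gene on the other strand, among them exu, twe, IntS1, IntS9, SA1 and nanos, and their split from those partners is uncertain. nanos, the posterior repressor of translation, had 150.4 and 153 CPM at 2.5 to 3 h, against 674 and 726 CPM in mutant embryos, with changes of -2.21 in mutant embryos and -4.19 in wild type.

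exu, whose protein helps to localize bcd RNA, was cleared in both arms. Mutant embryos held 28.2 and 31.5 CPM at 2.5 to 3 h, against 705 and 745 CPM at 1 to 1.5 h, a change of -4.60 ± 0.07, and wild type changed by -6.08 ± 0.08. fs(1)M3, an eggshell and terminal-patterning gene, changed by -3.77 in mutant embryos and -5.13 in wild type. The transcripts of bcd and of its localization factor went apart in mutant embryos, while both fell in wild type.

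**Figure D2:**
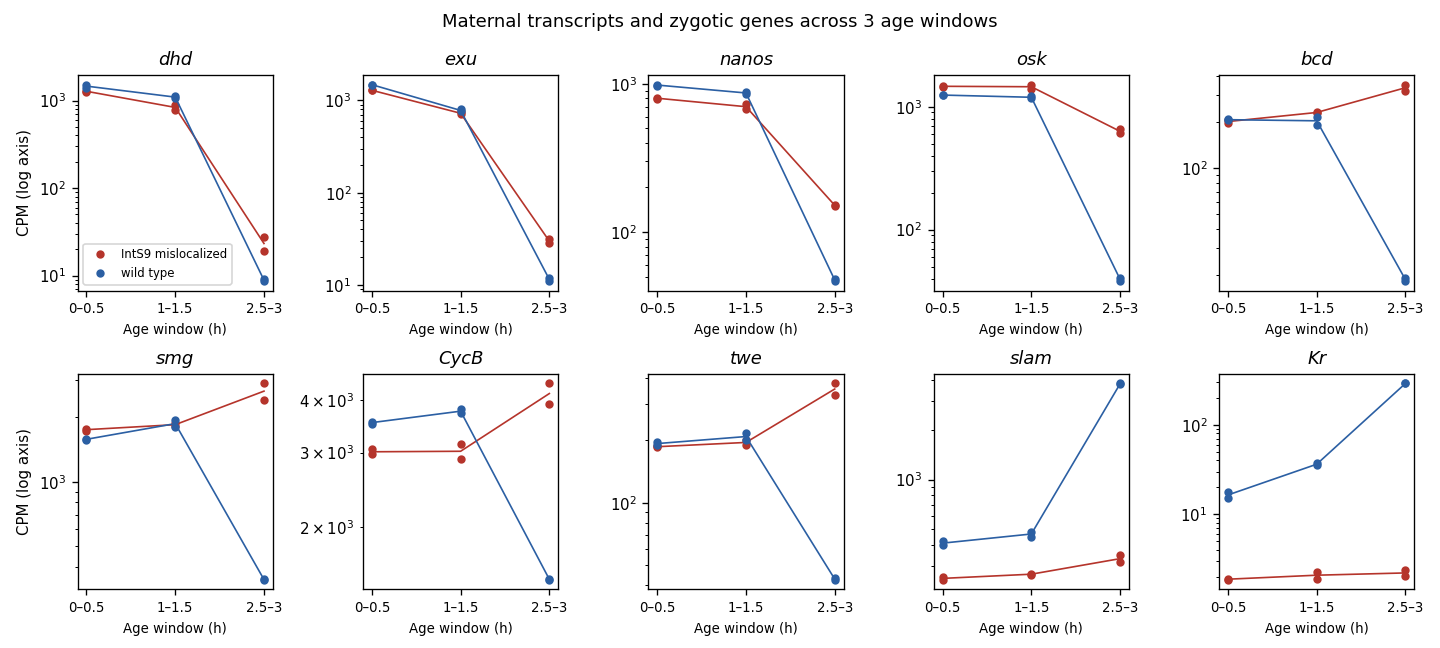
Levels in CPM (log axis) of 10 genes over the windows of 0 to 0.5, 1 to 1.5 and 2.5 to 3 h, with points for single libraries and lines through the means of 2, IntS9 mislocalized in red and wild type in blue. dhd and exu fell steeply in both arms, nanos and osk less far in mutant embryos, and bcd, smg, CycB and twe fell in wild type only, though the mutant rises of bcd, smg and CycB were not called on the TPM scale and the small one of slam reversed there. slam and Kr climbed in wild type while Kr stayed at 1.9 to 2.4 CPM in mutant embryos.

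Germ plasm RNAs followed a like pattern. Of 28 genes, 20 fell (71.4%) and 5 were higher (17.9%) in mutant embryos, beside 36% and 34.9% of all genes. Their median was -0.44, against a median of -2.52 in wild type. The difference was called for 22 genes changing more positively (78.6%) and 3 more negatively (10.7%) in mutant embryos, beside 30.2% and 36% of all genes. vas, the germline RNA helicase, had 37.3 and 44.8 CPM at 2.5 to 3 h, against 179.8 and 172 CPM at 1 to 1.5 h, with changes of -2.10 in mutant embryos and -3.45 in wild type. zpg, a germline gap-junction protein, had 168 and 167 CPM at 2.5 to 3 h, against 217 and 239 CPM, with changes of -0.45 in mutant embryos and -2.92 in wild type. Tre1 and cuff changed more negatively in mutant than in wild type embryos. Tre1, a receptor that guides germ cell migration, changed by -2.56 ± 0.08 in mutant embryos and -0.35 ± 0.07 in wild type, and cuff, a factor for piRNA cluster transcription, by -4.68 ± 0.25 and 0.44 ± 0.14. cuff had 0.353 and 0.492 CPM in mutant embryos at 2.5 to 3 h, against 10.8 and 11.5 CPM at 1 to 1.5 h.

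Repressors and decay factors of maternal RNA moved in both directions. Of 35 genes, 16 were higher (45.7%) and 13 lower (37.1%) in mutant embryos, beside 34.9% and 36% of all genes. Their median was 0.13, which was -0.27 on the TPM scale, against 8 higher and 23 lower in wild type, with a median of -0.44. bru1, a repressor of osk translation, had 110.4 and 132 CPM at 2.5 to 3 h, against 579.8 and 619.9 CPM at 1 to 1.5 h, with changes of -2.31 in mutant embryos and -5.42 in wild type. orb, a protein that binds messages in the cytoplasm and controls their poly(A) tails, had 119.9 and 129 CPM at 2.5 to 3 h, against 337 and 369 CPM in mutant embryos, and changed by -5.28 in wild type.

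Other members of this list fell mainly in mutant embryos. Not11, a subunit of the CCR4-NOT deadenylase, had 0.494 and 0.308 CPM at 2.5 to 3 h, against 11.01 and 11.5 CPM at 1 to 1.5 h, a change of -4.81 ± 0.23, beside -0.43 ± 0.13 in wild type. RanBPM, a subunit of the CTLH ubiquitin ligase, had 42.7 and 43.6 CPM, against 263 and 259 CPM, and changed by -2.60, beside -0.38 in wild type. Upf1, the helicase of nonsense-mediated decay, changed by -2.08 in mutant embryos and -0.67 in wild type.

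Of 30 cell cycle genes 14 were higher (46.7%) and 13 lower (43.3%) in mutant embryos, beside 34.9% and 36% of all genes. twe, a Cdc25-type phosphatase whose RNA is normally lost as the embryo stops its rapid divisions, had 331 and 376 CPM in mutant embryos at 2.5 to 3 h, against 191 and 200.2 CPM at 1 to 1.5 h, and rose by 0.86 ± 0.06. In wild type twe had 42.7 and 43.2 CPM at 2.5 to 3 h, against 201 and 217 CPM, a change of -2.28 ± 0.07. The arms differed by 3.14 ± 0.09 (edgeR, adjusted p = 4.7e-17). CycB, the mitotic cyclin, had 3904 and 4374 CPM at 2.5 to 3 h, against 2900.1 and 3142 CPM in mutant embryos, a change of 0.45 that was 0.063 and not called on the TPM scale, beside -1.32 in wild type. mei-41, the checkpoint kinase ATR, fell in mutant embryos to 23.1 and 21.8 CPM, against 177 and 187 CPM at 1 to 1.5 h, a change of -3.02, beside -0.55 in wild type.

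The deepest falls of mutant embryos were shared with wild type in part. Of the 482 genes that fell at least 16-fold, 174 also fell at least 2-fold in wild type and 231 were not lower there by any called amount. Cnb, the centriole protein Centrobin (chromosome 3L, 1947565 to 1950262), had 2 counts over both libraries at 2.5 to 3 h, against 521 at 1 to 1.5 h. The ratio of 1 to 1.5 h over 2.5 to 3 h was 202, with a 95% exact interval of 55.7 to 1680 that covers counting error only. In wild type Cnb stood at 35.2 and 35.6 CPM at 2.5 to 3 h and 30.5 and 31.0 CPM at 1 to 1.5 h. Xpac, a nucleotide excision repair gene, had 3 counts, against 368, a ratio of 95.3 (32.4 to 464).

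Other deep falls chosen by size were phr, SA1 and cid. phr, a DNA photolyase, had 0.141 and 0.492 CPM in mutant embryos at 2.5 to 3 h, against 43.1 and 41.4 CPM at 1 to 1.5 h, a change of -6.97 ± 0.19, beside -0.51 ± 0.07 in wild type. The exons of Prosalpha1 overlap phr on the other strand. SA1, a cohesin subunit (chromosome 2L, 6950421 to 6954586), had 1.41 and 1.23 CPM at 2.5 to 3 h, against 106 and 106 CPM at 1 to 1.5 h, a change of -6.33 ± 0.10. In wild type SA1 was nearly level, at 138 and 139 CPM at 2.5 to 3 h and 130.0 and 132 CPM at 1 to 1.5 h, with a change of 0.08 that was not called (edgeR, adjusted p = 0.135). cid, the centromeric histone, had 0.494 and 0.615 CPM at 2.5 to 3 h, against 41.8 and 41.02 CPM in mutant embryos, with changes of -6.19 and -1.21 in mutant and wild type.

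Mettl3, the methyltransferase that marks adenosines in messenger RNA (chromosome 3R, 24032157 to 24034257), moved in opposite directions in the arms. Mutant embryos had 0.141 and 0.246 CPM at 2.5 to 3 h, against 19.3 and 18.4 CPM at 1 to 1.5 h, a change of -6.52 ± 0.21. Wild type had 59.4 and 58.1 CPM at 2.5 to 3 h, against 30.9 and 29.4 CPM, a change of 0.96 ± 0.07. wake, an ankyrin-repeat protein known from clock neurons, did so too, with 5.79 and 6.46 CPM at 2.5 to 3 h and 85.7 and 89.8 CPM at 1 to 1.5 h in mutant embryos, against 626 and 636 CPM and 71.3 and 66.7 CPM in wild type. Its changes were -3.84 ± 0.08 and 3.19 ± 0.06, a difference of -7.03 (edgeR, adjusted p = 6.33e-21). Polr2M, a regulator that associates with RNA polymerase II, and Tbca, a tubulin folding cofactor, changed by -6.55 ± 0.19 and -6.13 ± 0.18 in mutant embryos, beside -0.98 and -2.98 in wild type.

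Most DNA replication genes changed more negatively in mutant than in wild type embryos. Of 24 genes 19 fell (79.2%) and 5 were higher (20.8%), beside 36% and 34.9% of all genes. Their median was -1.23, against a median of -0.38 in wild type. The difference was called for 17 in the negative (70.8%) and 5 in the positive direction (20.8%), beside 36% and 30.2% of all genes. Prim2, a primase subunit, had 1.41 and 0.923 CPM at 2.5 to 3 h, against 70.8 and 69.8 CPM at 1 to 1.5 h in mutant embryos, a change of -5.92 ± 0.13, beside -0.06 ± 0.07 in wild type. Orc2 of the origin recognition complex had 2.75 and 3.75 CPM, against 102 and 103 CPM, a change of -4.96 ± 0.10, beside -0.98 ± 0.06 in wild type. Its partner Orc4 changed by -3.62 and -1.08. RnrS, the small subunit of ribonucleotide reductase, had 104 and 92.3 CPM at 2.5 to 3 h, against 723 and 772 CPM, and changed by -2.93 in mutant embryos and -0.29 in wild type. RPA1, which coats single-stranded DNA, changed by -3.55 and -1.40. Irbp and Ku80, the pair that forms the Ku complex at DNA breaks, changed by -3.04 and -3.61 in mutant embryos, beside -2.11 and -0.76 in wild type.

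Genes of the lipid kinase complex of autophagy fell in mutant embryos and rose in wild type. Pi3K59F, the kinase Vps34, had 1.27 and 1.05 CPM at 2.5 to 3 h, against 20.2 and 19.0 CPM in mutant embryos, and 48.8 and 49.1 CPM, against 22.1 and 20.1 CPM in wild type. The changes were -4.08 ± 0.17 and 1.21 ± 0.09. Its partner Vps15 had 5.93 and 4.49 CPM at 2.5 to 3 h, against 57.2 and 53.2 CPM in mutant embryos, with changes of -3.41 ± 0.10 and 1.07 ± 0.06. Atg6, the Beclin subunit, changed by -2.72 and 0.37. Over the whole autophagy list of 22 genes fitted, 10 were higher (45.5%) and 10 lower (45.5%) in mutant embryos, beside 34.9% and 36% of all genes. The list median was -0.01, so the list as a whole did not move as these 3 partners did.

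**Figure D3:**
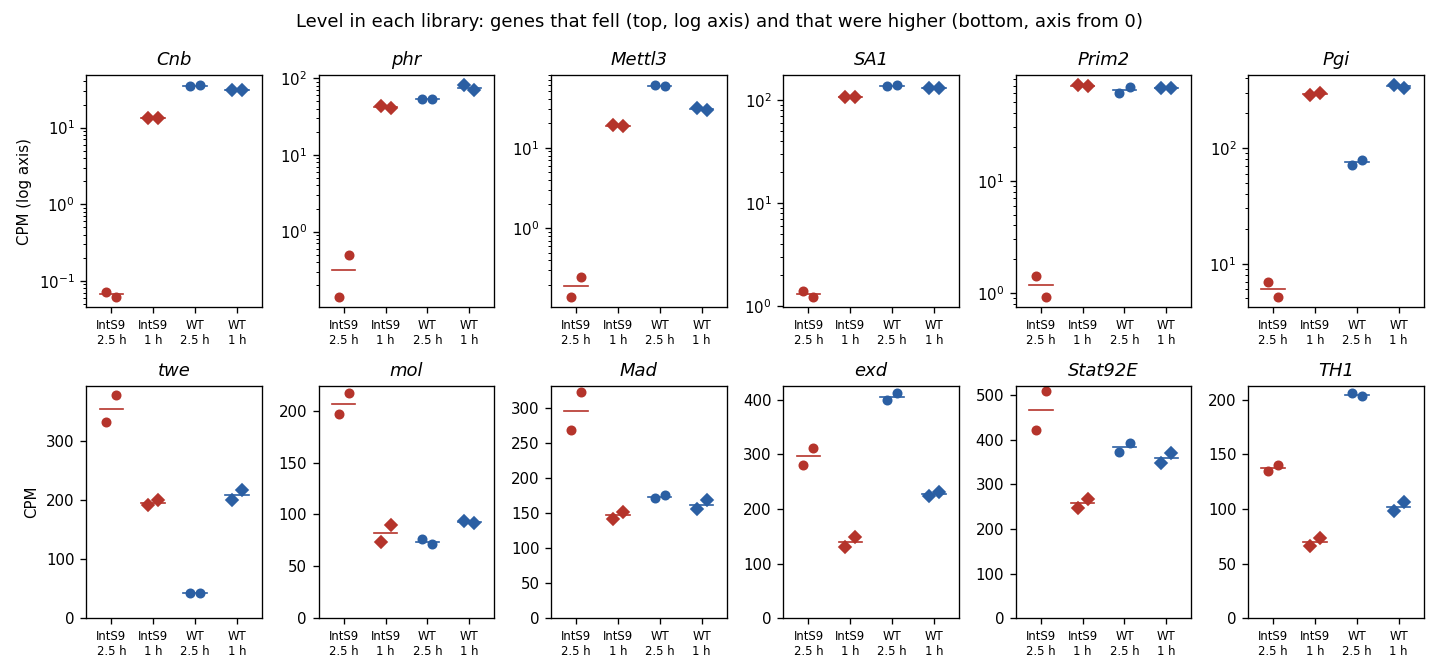
Level of 12 genes in each library in CPM, in the order IntS9 mislocalized at 2.5 to 3 h, IntS9 mislocalized at 1 to 1.5 h, wild type at 2.5 to 3 h and wild type at 1 to 1.5 h, with 2 points and a bar at their mean per group. The upper genes (log axis) fell to between 0.066 and 6.04 CPM on average in mutant embryos at 2.5 to 3 h, while the lower genes (linear axis from 0) stood higher at 2.5 to 3 h than at 1 to 1.5 h in both mutant libraries.

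Glycolysis genes fell widely. Of 12 fitted 10 fell (83.3%) and 2 were higher (16.7%) in mutant embryos, beside 36% and 34.9% of all genes. Their median was -1.11, against a median of -3.50 in wild type. The difference was called for 9 in the positive (75%) and 2 in the negative direction (16.7%), beside 30.2% and 36% of all genes. Gapdh2 had 70.8 and 60.4 CPM at 2.5 to 3 h, against 1290.3 and 1402 CPM at 1 to 1.5 h, with changes of -4.36 ± 0.08 in mutant embryos and -6.45 ± 0.09 in wild type. PyK, pyruvate kinase, changed by -3.36 and -5.48, and Tpi, triosephosphate isomerase, by -4.28 and -6.34. Pgi, phosphoglucose isomerase, went the other way, with 6.92 and 5.17 CPM at 2.5 to 3 h, against 284 and 300.1 CPM in mutant embryos, a change of -5.61 ± 0.09, beside -2.17 ± 0.06 in wild type.

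Proteasome, mitochondrial ribosome and respiratory chain lists held called genes in both directions. Over all genes fitted, 34.9% were higher, 36% lower and 24.9% at least 2-fold lower. Of 36 proteasome genes fitted, from 48 listed, 18 were higher and 16 lower, 11 of them at least 2-fold lower, and the list median of 0.24 was -0.15 on the TPM scale. Rpn11, the deubiquitinase of the proteasome lid, had 8.96 and 9.41 CPM at 2.5 to 3 h, against 186 and 193 CPM at 1 to 1.5 h, with changes of -4.36 in mutant embryos and -1.35 in wild type. Rpn1, a scaffold of its base, changed by -3.41 and -1.19. Of 73 mitochondrial ribosome genes 29 were higher (39.7%) and 25 lower (34.2%), close to the shares of all genes, 14 of them at least 2-fold lower. mRpL38 had 1.2 and 0.554 CPM at 2.5 to 3 h, against 35.7 and 37.3 CPM, and changed by -5.40, beside -0.67 in wild type. mRpL47 changed by -5.05 and -0.23. Of 67 respiratory chain genes fitted, from 88 listed, 43 were higher and 12 lower, 4 at least 2-fold, with a median of 0.33 that was -0.07 on the TPM scale. UQCR-C2 of complex III had 19.1 and 16.8 CPM at 2.5 to 3 h, against 139 and 151 CPM, and changed by -3.02.

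Clear rises were few. Of the 66 genes that rose at least 2-fold, 46 were protein coding and 14 were small nuclear, nucleolar or Cajal body RNAs, 27 also rose at least 2-fold in wild type, and 18 reached 5 CPM. mol, a maturation factor of the oxidase Duox (chromosome 2L, 14975747 to 14997559), had 197 and 217 CPM in mutant embryos at 2.5 to 3 h, against 73.9 and 89.7 CPM at 1 to 1.5 h, a rise of 1.34 ± 0.07. Wild type had 76.4 and 71.5 CPM at 2.5 to 3 h, against 94.2 and 92.2 CPM, a change of -0.33 ± 0.08. The rise was called on the TPM scale as well. Mad, the transcription factor of BMP signalling, had 268 and 322 CPM at 2.5 to 3 h, against 142 and 151 CPM, a rise of 1.01 ± 0.07, beside 0.10 in wild type. exd, a partner of Hox proteins, had 281 and 313 CPM at 2.5 to 3 h, against 129.6 and 149 CPM, a rise of 1.09 ± 0.06, beside 0.83 ± 0.06 in wild type.

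Further names past the rule were Scp2, a calcium-binding protein gene, Spec2, an effector of Cdc42, the kinase gene Stlk, the Ski-family gene fuss, and Atg101 of the complex that starts autophagy. Scp2 had 34.1 and 32.8 CPM at 2.5 to 3 h, against 12.2 and 14.8 CPM in mutant embryos (edgeR, adjusted p = 6.09e-09). Stlk rose by 1.02 ± 0.09 in mutant embryos and changed by -0.75 ± 0.10 in wild type, a difference of 1.77 (edgeR, adjusted p = 8.05e-09). Atg101 rose by 1.13 in mutant embryos and by 2.50 in wild type, Spec2 by 1.06 in mutant embryos, and fuss by 1.00. Every one of these rises was found with both libraries of 2.5 to 3 h above both of 1 to 1.5 h, which the rule for naming them required.

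Regulators of genome activation kept their RNA in mutant embryos. Of 11 genes 9 were higher (81.8%) and 1 lower (9.1%), beside 34.9% and 36% of all genes. Their median of 0.56 was 0.17 on the TPM scale. In wild type 7 were higher and 2 lower, with a median of 0.53. zld, the pioneer factor Zelda, had 489 and 565 CPM at 2.5 to 3 h and 398 and 415 CPM at 1 to 1.5 h in mutant embryos, a change of 0.38 ± 0.06 that turned to -0.019 on the TPM scale, beside 1.22 ± 0.06 in wild type. Stat92E, the JAK/STAT factor, had 422 and 508 CPM at 2.5 to 3 h, against 247 and 268 CPM, and rose by 0.85 ± 0.07. Clamp, a pioneer factor that binds GA repeats, rose by 0.72 in mutant embryos, beside a fall in wild type, with a change of -0.47. CTCF, the insulator protein, was the 1 that fell, with changes of -1.10 in mutant embryos and -1.61 in wild type.

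Cytoplasmic ribosomal protein genes moved together and little. Of 88 genes fitted, from 93 listed, 83 were higher (94.3%) and 0 lower, beside 34.9% and 36% of all genes. Their median of 0.49 was 0.08 on the TPM scale. In wild type 85 were higher and 0 lower, with a median of 0.61. edgeR found 0 lower at an unadjusted p under 0.05, and DESeq2 called 84 higher and 0 lower. RpL41 had 2709 and 2085 CPM at 2.5 to 3 h, against 1420.4 and 1607 CPM at 1 to 1.5 h, with a change of 0.66 ± 0.10. Most histone genes gave no value: 110 of 116 histone genes had 0 counts in mutant embryos at 2.5 to 3 h and at 1 to 1.5 h. BigH1, the linker histone of the early embryo, had 260.0 and 217 CPM at 2.5 to 3 h and 269 and 253 CPM at 1 to 1.5 h, a change of -0.13 that was not called (edgeR, adjusted p = 0.0787) and was -0.53 and called on the TPM scale, beside -3.42 in wild type. His2Av, a histone variant, rose by 0.70 in mutant embryos and 0.76 in wild type.

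IntS9 and IntS11 kept their RNA, while some other Integrator subunits did not. IntS9 itself (chromosome 3L, 16103432 to 16105627) had 82.6 and 86.7 CPM in mutant embryos at 2.5 to 3 h, against 64.0 and 68.7 CPM at 1 to 1.5 h, a change of 0.35 ± 0.06 that was -0.039 on the TPM scale. Wild type had 70.2 and 69.0 CPM at 2.5 to 3 h, against 53.2 and 49.0 CPM, a change of 0.45 ± 0.07, and a difference between the arms was not called (edgeR, adjusted p = 0.383). IntS11 changed by 0.39, which was -0.0013 on the TPM scale, beside 0.62 in wild type, and IntS4 by -0.62 and -0.72. IntS1, the largest subunit, fell to 4.66 and 4.98 CPM in mutant embryos at 2.5 to 3 h, against 117 and 115.2 CPM at 1 to 1.5 h, a change of -4.59 ± 0.08. In wild type IntS1 had 193 and 195 CPM at 2.5 to 3 h, against 174 and 175 CPM. IntS8 fell to 19.8 and 22.2 CPM, against 76.3 and 73.3 CPM, with changes of -1.83 in mutant embryos and 0.11 in wild type. IntS10 had 60.2 and 69.4 CPM at 2.5 to 3 h and 42.4 and 47.6 CPM at 1 to 1.5 h in mutant embryos, a change of 0.53 that was 0.13 and not called on the TPM scale, beside -0.91 in wild type. Over 11 subunits 6 were higher (54.5%) and 4 lower (36.4%), beside 34.9% and 36% of all genes, with a median of 0.27 that was -0.12 on the TPM scale.

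Factors of polymerase pausing and elongation were mostly higher, 16 of 21 (76.2%), with 4 lower (19%), beside 34.9% and 36% of all genes. Their median of 0.27 was -0.13 on the TPM scale. The subunits of the negative elongation factor NELF went apart. TH1, its D subunit, had 135 and 140.3 CPM at 2.5 to 3 h, against 65.9 and 73.6 CPM at 1 to 1.5 h, a rise of 0.98 ± 0.06, close to the wild type rise of 1.00 ± 0.06. Nelf-A had 24.98 and 27.6 CPM, against 149.6 and 159 CPM, and changed by -2.55 ± 0.06, beside -0.14 ± 0.05 in wild type. CycT, the cyclin of the elongation kinase P-TEFb, changed by -1.88 in mutant embryos and 0.37 in wild type, and Larp7, which holds that kinase on the 7SK RNA, by -2.29 and -2.48.

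Small nuclear RNAs were higher with age in both arms. In mutant embryos 10 of 14 fitted from 32 listed were higher and 0 lower, with a median of 0.99 that was 0.57 on the TPM scale. Wild type had 12 higher and 0 lower, with a median of 0.95, and the difference between the arms was called for 0. Of 20 small nucleolar and Cajal body RNAs fitted from 288 listed, 12 were higher and 0 lower in mutant embryos. In wild type 15 were higher and 0 lower, and the difference was called for 1. Over all genes 34.9% were higher in mutant embryos and 41.7% in wild type, and the difference was called for 66.2%. No member of either list was lower at an unadjusted p under 0.05, and DESeq2 called 8 and 13 members higher and 0 lower. The U2 copy snRNA:U2:38ABa had 34.7 and 22.3 CPM at 2.5 to 3 h and 10.8 and 15.2 CPM at 1 to 1.5 h, a change of 1.10 ± 0.37 (edgeR, adjusted p = 0.0346) that was not called without replicate 1 of 1 to 1.5 h (0.143), replicate 2 of 1 to 1.5 h (0.058) or replicate 1 of 2.5 to 3 h (0.208). The libraries of 2.5 to 3 h lay far apart for short RNAs. The summed level of all listed small nucleolar and Cajal body RNAs was 1495 and 938 CPM at 2.5 to 3 h, against 642 and 692 CPM at 1 to 1.5 h. Copies of these genes share sequence, so the split between copies is uncertain.

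Hsp23, Hml and Tig were high in the mutant line at both ages and moved little on the CPM scale. Hsp23, a small heat shock protein gene, had 1326 and 1209 CPM in mutant embryos at 2.5 to 3 h and 902 and 925 CPM at 1 to 1.5 h, against 80.3 and 82.7 CPM and 55.2 and 47.6 CPM in wild type. Its mutant change of 0.47 was 0.070 and not called on the TPM scale. Hml, hemolectin, had 68.3 and 76.7 CPM at 2.5 to 3 h and 58.1 and 55.9 CPM at 1 to 1.5 h, against 0.311 and 0.34 CPM and 0.183 and 0.0634 CPM in wild type, with a mutant change of 0.35 that turned to -0.036 on the TPM scale. Tig, the matrix protein tiggrin, had 256 and 242 CPM at 2.5 to 3 h, against 309 and 288 CPM in mutant embryos. Its change was -0.26, which was -0.64 on the TPM scale. In wild type Tig had 0.934 and 0.68 CPM at 2.5 to 3 h and 3.17 and 2.73 CPM at 1 to 1.5 h. Atg18b fell further in mutant embryos, with 261 and 268 CPM at 2.5 to 3 h, against 415 and 444 CPM. Its change was -0.70, which was -1.10 on the TPM scale, beside -0.55 in wild type. Ect3, a beta-galactosidase gene, was high at 1 to 1.5 h only, with 32.3 and 32.3 CPM in mutant embryos at 2.5 to 3 h, against 368 and 376 CPM, and 30.1 and 30.3 CPM in wild type at 2.5 to 3 h, against 9.34 and 7.1 CPM.

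Heat shock and chaperone genes fell more often than not, with 15 of 28 lower (53.6%) and 5 higher (17.9%) in mutant embryos, beside 36% and 34.9% of all genes. Hsp83, the maternal Hsp90, had 967 and 972 CPM at 2.5 to 3 h, against 3832 and 3989.6 CPM at 1 to 1.5 h, with changes of -2.01 in mutant embryos and -3.30 in wild type. Hsp26 changed by -2.85 and -5.61, and the mitochondrial chaperonin Hsp60A by -2.24 and -4.23. Among cell death genes, skl, a killer gene of the reaper family, had 42.8 and 45.1 CPM at 2.5 to 3 h, against 23.9 and 25.3 CPM in mutant embryos, a rise of 0.84 ± 0.10, and 3.24 and 2.31 CPM, against 0.976 and 0.952 CPM in wild type. Diap1, the inhibitor that such proteins bind, had 47.8 and 49.4 CPM at 2.5 to 3 h, against 177 and 183 CPM in mutant embryos, with changes of -1.89 ± 0.05 in mutant embryos and 0.15 ± 0.05 in wild type. Of the 18 cell death and p53 genes fitted, 9 were higher (50%) and 7 lower (38.9%), beside 34.9% and 36% of all genes.

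Most lipid droplet genes changed more positively in mutant than in wild type embryos. Jabba, which anchors histones on droplets, had 1149 and 1138 CPM at 2.5 to 3 h, against 1427 and 1327 CPM at 1 to 1.5 h in mutant embryos, and 13.3 and 14.2 CPM, against 635 and 607 CPM in wild type. Its changes were -0.27 ± 0.05 and -5.50 ± 0.07. Lsd-2, a perilipin, changed by -0.88 and -4.11. Of 11 genes 6 fell (54.5%) and 3 were higher (27.3%) in mutant embryos, beside 36% and 34.9% of all genes. The difference was called for 7 in the positive (63.6%) and 3 in the negative direction (27.3%), beside 30.2% and 36% of all genes. Seipin was one of the 3 in the negative direction, with changes of -2.25 in mutant embryos and -1.44 in wild type. Maternal genes of the Toll pathway included 5 higher (38.5%) and 3 lower (23.1%) of 13 in mutant embryos, beside 34.9% and 36% of all genes. Tl, the receptor, rose by 0.82 ± 0.07 in mutant embryos, and dl, the NF-kappaB factor Dorsal, had 31.1 and 30.9 CPM at 2.5 to 3 h, against 119 and 119 CPM, with changes of -1.94 and -5.45 in mutant and wild type.

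Marker lists of differentiated tissues held RNA in the mutant libraries, and most of these lists moved with age there. Over all genes fitted 34.9% were higher and 36% lower. All 16 muscle markers fitted fell, and the 19 listed summed to 18.1 and 15.996 CPM at 2.5 to 3 h, against 251 and 195 CPM at 1 to 1.5 h. Mhc, the muscle myosin heavy chain, had 0.635 and 0.554 CPM at 2.5 to 3 h, against 63.2 and 47.7 CPM at 1 to 1.5 h, and Act57B, a muscle actin, had 0.847 and 0.677 CPM, against 46.5 and 37.4 CPM. At 2.5 to 3 h 7 of the 19 had 0 counts, at 1 to 1.5 h none. Muscle markers were also present in wild type at 0 to 0.5 h, with 298 and 274 CPM, and stood at 64.6 and 65.8 CPM at 1 to 1.5 h. Cuticle and Osiris genes fell in 24 of 43 fitted from 134 listed and rose in 4, and their sum was 69.7 and 66.3 CPM at 2.5 to 3 h, against 89.4 and 89.0 CPM at 1 to 1.5 h. In wild type this sum was 14.4 and 13.5 CPM at 2.5 to 3 h and 3.11 and 3.05 CPM at 1 to 1.5 h. Gut markers fell in 24 of 35 and rose in 4, with sums of 541 and 516 CPM at 2.5 to 3 h, against 481 and 476 CPM at 1 to 1.5 h. Wild type sums of the gut list were 566 and 569 CPM at 2.5 to 3 h and 369 and 348 CPM at 1 to 1.5 h, so sums of this size were not particular to mutant embryos. Many fitted members of the muscle, cuticle and gut lists passed the filter through younger libraries where they are high, so the counts of falls follow in part from the filter. Of the 45 gut genes listed, 29 had 3 or fewer counts in mutant embryos at 2.5 to 3 h and 4 at 1 to 1.5 h, against 35 in wild type at 2.5 to 3 h and 37 at 1 to 1.5 h. Hemocyte and fat body markers fell in 11 of 17 and rose in 2, with sums of 444 and 459 CPM at 2.5 to 3 h, against 706 and 691 CPM. Their wild type sums were 324 and 316 CPM, against 422 and 423 CPM. Of 6 neuron and eye markers fitted 2 were higher (33.3%), close to the share of all genes, and 0 lower. Their median of 0.07 was -0.04 on the TPM scale. The list summed to 348 and 378 CPM at 2.5 to 3 h, against 220 and 235 CPM. In wild type those sums were 457 and 447 CPM, against 280 and 307 CPM. Eggshell and yolk markers summed to 46.5 and 44.85 CPM, against 48.5 and 45.9 CPM, beside 4.11 and 3.33 CPM and 1.16 and 0.952 CPM in wild type. Of 5 fitted 1 was higher and 2 lower in mutant embryos, with a median of -0.56. Of the 26 listed 19 had 3 or fewer counts there at 2.5 to 3 h, so few genes carried the sum.

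**Figure D4:**
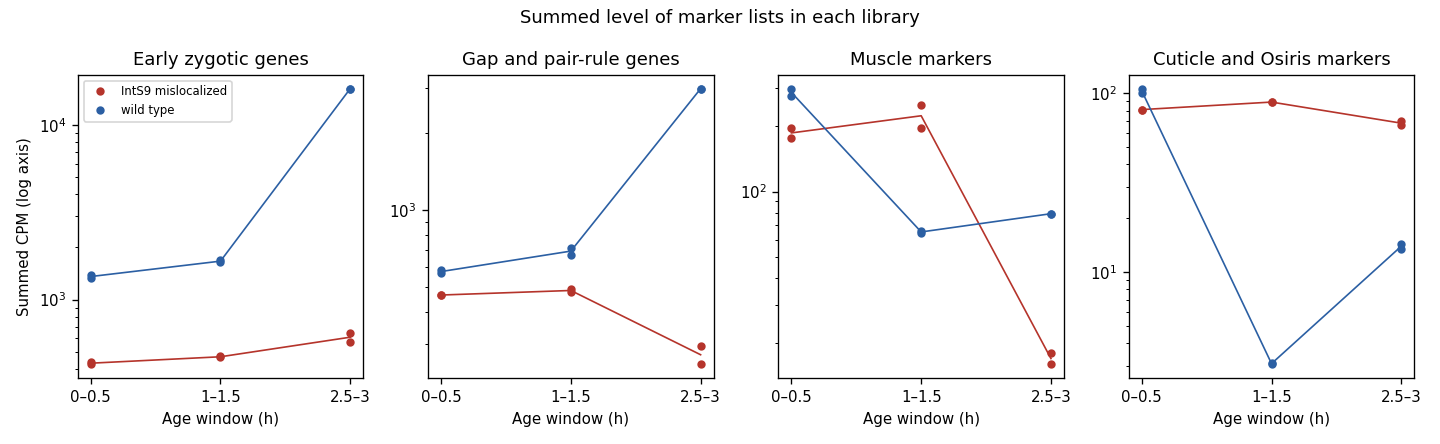
Summed CPM (log axis) of 4 gene lists in each library over the windows of 0 to 0.5, 1 to 1.5 and 2.5 to 3 h, IntS9 mislocalized in red and wild type in blue, with points for libraries and lines through means. Early zygotic genes reached 16097 and 16084 CPM in wild type and at most 648 CPM in mutant embryos, where slam and Nin held most of the sum. Muscle markers dropped between the later windows in mutant embryos and between the earlier ones in wild type.

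The falls were largely shared with IntS11 mislocalized embryos. In that experiment 4953 of 8804 genes were called with age (56.3%), 1934 higher (22%) and 3019 lower (34.3%), a split that became 3153 higher and 2662 lower with RLE size factors, and 9.1% rose at least 2-fold. Of the 2295 genes, 2096 were fitted there, and 1702 (81.2%) fell at least 2-fold, beside 21.8% of all genes fitted. These 1702 were 88.6% of the 1921 such genes of the IntS11 experiment that were fitted in both. The test of the difference between the age changes called 2731 of 9459 genes (28.9%), with 9.74% at least 2-fold more negative with IntS9. These were 1327 in the positive and 1404 in the negative direction, or 752 and 1553 with total counts as the scale, and 1766 in all without replicate 1 of the IntS9 mislocalized embryos at 1 to 1.5 h. Of 2271 falls tested 807 (35.5%) fell more with IntS9 and 117 (5.15%) less, an order that the choice of genes by their fall with IntS9 favours. exu changed by -4.60 ± 0.07 with IntS9 and -4.38 ± 0.10 with IntS11, a difference that was not called (edgeR, adjusted p = 0.0635). SA1 and Mettl3 fell further with IntS9. SA1 changed by -6.33 and -3.70, a difference of -2.70 ± 0.16, and Mettl3 by -6.52 and -2.15, a difference of -4.44 ± 0.45. All 29 early zygotic genes rose with age in IntS11 mislocalized embryos, beside 22% of all genes, with a median of 1.96. The test of the difference between the lines called 15 of the 29 lower with IntS9 (51.7%) and 0 higher, beside 14.8% and 14% of all genes. The other 14 were not called. At 2.5 to 3 h 15 of the 29 had 3 or fewer counts with IntS9 and 0 with IntS11. Such members passed the filter through other groups, so a higher call with IntS9 was hardly possible for them. Line and experiment cannot be told apart in these differences.

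Few of the falls were seen in alpha-amanitin embryos. There 242 of 8517 genes were called with age (2.84%), 87 higher and 155 lower (1.82%), a split of 84 and 94 with DESeq2. Leaving out any 1 of the 4 alpha-amanitin libraries left 13 to 24 calls. Of the 2295 genes 2015 were fitted, 152 (7.54%) fell, and their median log2 change was -0.11, against a median of 0.00 over all genes. Of all genes edgeR called 0 at least 2-fold lower there, with 14 at an unadjusted p under 0.05, and DESeq2 called 0, with 4 at an unadjusted p under 0.05. The test of the difference called 5035 of 9401 genes (53.6%), with 19.7% at least 2-fold more negative with IntS9, and 1847 of the 2295 (80.5%) fell more in IntS9 mislocalized than in alpha-amanitin embryos, again for genes chosen by their fall with IntS9. exu had 1129.8 and 1173 CPM in alpha-amanitin embryos at 2.5 to 3 h and 1307 and 1289 CPM at 1 to 1.5 h, and dhd had 1376 and 1361 CPM and 1682 and 1658 CPM. SA1 had 156 and 156 CPM at 2.5 to 3 h and 187 and 191 CPM at 1 to 1.5 h. bcd was level there, with 208 and 212 CPM at 2.5 to 3 h and 208 and 210.4 CPM at 1 to 1.5 h.

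**Figure D5:**
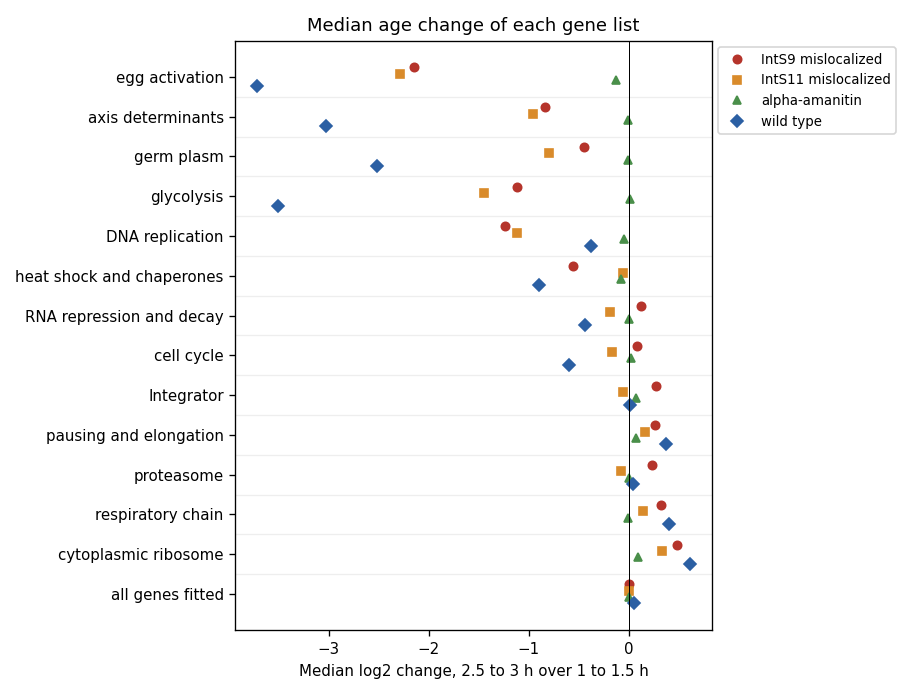
Median log2 age change (2.5 to 3 h over 1 to 1.5 h) of 13 gene lists and of all genes fitted, in IntS9 mislocalized, IntS11 mislocalized, alpha-amanitin and wild type embryos. Egg activation, axis, germ plasm and glycolysis lists lay far left in wild type, less far in both mislocalized lines and near 0 with alpha-amanitin, while DNA replication genes lay further left in the mislocalized lines than in wild type. On the TPM scale the IntS9 medians right of 0 were negative for all but the cytoplasmic ribosome list.

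The window before was quieter in IntS9 mislocalized embryos. Between 0 to 0.5 h and 1 to 1.5 h, 1548 of 9217 genes were called (16.8%), 265 higher (2.88%) and 1283 lower (13.9%), a split of 584 and 1065 with total counts as the scale. The calls numbered 916 without replicate 1 of 0 to 0.5 h and 1013 without replicate 1 of 1 to 1.5 h. Past 2-fold, 34 were higher and 115 lower. This step shares the libraries of 1 to 1.5 h with the main comparison, so its values are given only side by side. exu had 1290.0 and 1285 CPM at 0 to 0.5 h, 705 and 745 CPM at 1 to 1.5 h and 28.2 and 31.5 CPM at 2.5 to 3 h, with changes of -0.83 and -4.60 for the 2 steps. SA1 had 202 and 207 CPM, 106 and 106 CPM and 1.41 and 1.23 CPM in the same windows, with steps of -0.94 and -6.33. Pgi had steps of -0.81 and -5.61, and bcd had steps of 0.20 and 0.54.

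The genes that fell furthest had short transcripts. Among protein-coding genes, those that fell at least 16-fold in mutant embryos had a median annotated 3′ UTR of 185 bases and a median transcript of 1601 bases. Falls of 4 to 16-fold had medians of 245 and 2054 bases, and falls of 2 to 4-fold 333 and 2404.5 bases. Called falls under 2-fold had medians of 367 and 2450.5 bases, and genes not called 252 and 2003 bases. In wild type the 3′ UTR medians for the same 4 sizes of fall, from the deepest, were 320.5, 434, 353.5 and 326 bases. In mutant embryos the medians were shorter the deeper the fall, and in wild type they did not follow that order. Protein-coding genes among the 221 that were high in the youngest wild type libraries were kept here, and 164 of the 221 fell at least 2-fold in mutant embryos. Their part in these medians was not tested. The medians describe the genes and were given no test.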

How the data were processed

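Total RNA of embryos was depleted of ribosomal RNA and sequenced with a strand-specific kit, per the labels' protocols. The submitters' processing notes list build dm6 and the tools Trimmomatic 0.39, STAR 2.7.10a, RSEM 1.3.1 and DESeq2 1.40.2. Whether the strand was used in counting, and how reads shared by gene copies were split, the sources used here do not say. The authors deposited RSEM expected counts, which are estimated reads per gene without normalization. The TPM values the authors deposited are relative to transcript length and to the total of each library. FPKM values were not used. Coordinates and lengths come from the Ensembl annotation of BDGP6, matched for 16623 of 16680 genes.

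Counts were rounded and tested in edgeR 4.0.16 (R 4.3.3): 1 fit per experiment with a mean for each group, TMM factors, the default expression filter and robust quasi-likelihood dispersion. P-values were adjusted by Benjamini-Hochberg over every gene fitted, and genes under 0.05 were called. Each SE was derived from the F statistic and the log2 change. Differences between age changes were contrasts within 1 fit, or in a joint fit across experiments. The alternatives tried were RLE factors, unscaled totals, every gene kept, DESeq2 1.42.0, fits of fewer groups, a block for replicate number and fits that each lacked 1 library. Chosen after seeing the data were limma 3.58.1 on log2 (TPM + 0.5) and the removal of genes high in the youngest wild type libraries. The procedure was tested on simulated data.

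Libraries of the IntS9 experiment held 13885877 to 21331201 counts, so that 1 count is worth at most 0.0706 CPM in the mutant libraries. Intervals and the limit from 3 counts cover counting error only.

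Members, lists and tests were chosen with earlier results of these data known. A rule named genes: IntS9, IntS11 and Jabba, the 12 largest rises and 12 largest falls of at least 5 CPM with libraries that do not overlap, the 8 largest differences each way against each other group, and up to 6 genes of each list. Named outside it, after their values were seen, were osk, bcd, smg, gnu, plu, wisp, Hsp23, Atg18b, Hml, slam, Nin, term, ftz, twi, Kr, zld and CycB.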

Additional observations from a re-analysis of the deposited data

Results flagged for a closer look

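Differences between groups under the same age contrast were called for 6101 genes between IntS9 mislocalized and wild type embryos, for 5035 between IntS9 mislocalized and alpha-amanitin embryos, and for 2731 between IntS9 and IntS11 mislocalized embryos. The count against IntS11 was 1766 without replicate 1 of the IntS9 mislocalized embryos at 1 to 1.5 h.

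Some genes were called with age in opposite directions in mutant and wild type embryos, and the test of the difference itself was called for each (edgeR, adjusted over all genes fitted). Lower in mutant and higher in wild type embryos were Mettl3, with a difference of -7.49 on the log2 scale, wake (-7.03), hry (-5.67), Ect3 (-5.40), Pi3K59F (-5.29), gt (-4.78), Vps15 (-4.48), ush (-4.28), the histone copy His2B:CG33868 (-2.66), whose reads are shared with near-identical copies, and Corp (-1.81), a gene of the p53 pathway. Higher in mutant and lower in wild type embryos were bcd (3.99), twe (3.14), smg (2.94), Stlk (1.77) and IntS10 (1.44). The mutant rises of bcd, smg and IntS10 were not called on the TPM scale, so for these the rise rests on the CPM scale; no fall was called in mutant embryos on either scale.

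Muscle markers gave a signal in libraries outside the main comparison. In wild type embryos at 0 to 0.5 h they summed to 286 CPM on average over 2 libraries, beside 18.1 and 15.996 CPM in IntS9 mislocalized embryos at 2.5 to 3 h.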

How the results depend on the processing

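The count of genes called with age in IntS9 mislocalized embryos, 6535, lay between 5937 and 6610 under the other scalings, filters, tools and sets of groups, and between 6100 and 6341 with 1 library left out, but it was 4282 on the TPM scale. Falls of at least 2-fold, 2295, lay between 2099 and 2413 under all of these and were 2338 on the TPM scale. Rises of at least 2-fold, 66, were 40 with DESeq2 and 2 on the TPM scale, and 48 to 98 with 1 library left out; wild type rises, 1809, were 815 on the TPM scale. The TPM scale reversed Hml (-0.036), IntS11 (-0.0013), IntS9 (-0.039), slam (-0.086), wisp (-0.0065) and zld (-0.019), none of which was called there. Over 116 named genes and 11 alternatives, 1254 of 1276 pairs kept direction and call, 6 reversed, 13 lost the call and 3 gained it.

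With alpha-amanitin the 242 calls were 453 without a filter, 145 with the replicate block, 1918 with only the groups compared and 13 to 24 with 1 library left out; falls of at least 2-fold, 0, were 3 without a filter and 1 with only the groups compared. The early step of IntS9 mislocalized embryos, 1548, ranged over 916 to 1317 with 1 library left out, and the difference from IntS11, 2731, over 1766 to 3204. The cause was not tested. RLE size factors shifted the age change of each gene by a median of 0.04 in mutant embryos, 0.15 in wild type and 0.16 with IntS11.

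Replicate numbers are shared between groups, but the labels do not say that they mark a shared collection. Replicate differences at 2.5 to 3 h and 1 to 1.5 h correlated at 0.15 in mutant embryos, with only 2 pairs. With the replicate block 6546 genes were called, 2284 at least 2-fold lower and 60 higher, and snRNA:U2:38ABa was not called (edgeR, adjusted p = 0.071). Having 2 libraries per group limits the precision of every SE, and levels under 3 counts, 0.2117 CPM in the shallowest mutant library, were under the limit that 3 counts set.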

Other observations

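Some maternal transcripts that wild type embryos bring to a few CPM or less stayed in IntS9 mislocalized embryos at an intermediate level. stai, a stathmin that binds tubulin, had 61.0 and 75.3 CPM in mutant embryos at 2.5 to 3 h, against 149 and 144 CPM at 1 to 1.5 h, and 3.92 and 2.72 CPM in wild type at 2.5 to 3 h, against 154 and 165 CPM at 1 to 1.5 h. Its changes were -1.10 ± 0.08 in mutant embryos and -5.58 ± 0.12 in wild type. Irk1, an inward rectifier potassium channel, had 25.5 and 20.9 CPM at 2.5 to 3 h, against 60.0 and 63.8 CPM at 1 to 1.5 h in mutant embryos, and 0.872 and 0.612 CPM, against 42.7 and 39.5 CPM at the same ages in wild type. Both genes were named by the rule for the largest differences from wild type. Neither mutant library came down to the wild type level of 2.5 to 3 h for either gene. Exons of cnc and CG46310 overlap Irk1.

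Cyp6a19, a cytochrome P450 gene whose exons overlap Cyp6a9 on the other strand, was among the 12 largest falls and fell in both arms. It had 3.46 and 3.69 CPM in mutant embryos at 2.5 to 3 h, against 288 and 305 CPM at 1 to 1.5 h, and 0.809 and 1.09 CPM in wild type at 2.5 to 3 h, against 427 and 407 CPM at 1 to 1.5 h. The changes were -6.37 ± 0.08 and -8.78 ± 0.10. Pgk, phosphoglycerate kinase, also fell in both arms, with changes of -3.05 ± 0.07 in mutant embryos and -2.82 ± 0.07 in wild type, a difference that was not called (edgeR, adjusted p = 0.056).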
